A study of Danio rerio with 2 samples.

Results

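The 9 genes described here encode enzymes that make serine and pass its carbon on to folate and to methylation: *phgdh*, *psat1*, *psph*, *shmt1*, *shmt2*, *mthfd2*, *mthfd1l*, *mat2aa* and *ahcy*. They were chosen by name from the 32105 genes of the deposited expression table, and each name matched 1 gene. Cells carrying the gata1-EGFP reporter were sorted from zebrafish embryos at 22 hours post fertilization, and the labels call them erythroblasts. The mutant group is given as *add1* knockout, with no allele named, and the control group as siblings labelled wildtype; the sorted cells of both carried the reporter. Each group is 1 library, how many embryos were pooled is not given in the sources used here, and the study asked what the loss of *add1*, an adducin gene, changes before red cell numbers differ.

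Serine is made from a glycolytic intermediate by 3 cytosolic enzymes in a row. Serine hydroxymethyltransferases then split it into glycine and a carbon unit carried by tetrahydrofolate, and this happens both in the cytosol and in mitochondria. In most dividing cells studied in mammals the mitochondrial route oxidizes the unit to formate, which leaves the organelle and supplies purine, thymidylate and methionine synthesis. The methionine cycle turns methionine into S-adenosylmethionine, the donor for most methylation reactions, and clears the product that inhibits them. Red cell precursors have a further demand on the pathway, since glycine is a building block of heme.

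The mutant library held 5956344 counts and that of the siblings 6157792. Levels below are CPM, counts scaled to a library total of 1000000, unless named otherwise. *add1* itself (ENSDARG00000103962) had 18 mutant and 1166 sibling counts, 62.7-fold lower (39.5 to 106). Positions are those of the table, on build GRCz10. Neither library had a replicate, so no test across embryos was possible and any difference between preparations cannot be told apart from genotype. The range after each fold is an exact 95% counting interval, which covers the counting of reads and no spread between embryos. A gene was taken as measured at 10 CPM or more in the higher library and as called when log2 of CPM + 1 differed by at least 2-fold. Of 9672 measured genes, 10.1% were called higher and 2.56% lower in the mutant library, and the median log2 ratio was 0.13. TMM, a scaling less affected by a few very abundant genes, called 7.05% higher and 4.52% lower and moved that median to -0.08, so TMM values are given where they change a call, a count of calls or the direction of a gene described below. Of all calls, 79.8% were higher with library totals and 61.0% with TMM. The globin genes took 5.15% of mutant and 11.4% of sibling counts.

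Markers of red cells were present in both libraries, and all 16 erythroid markers measured had lower ratios in the mutant cells, with 8 called lower (10 with TMM) and none at 0 counts, and with summed levels of 42529 and 86641 CPM. In the same library 13 of 17 measured skeletal muscle markers were called higher (10 with TMM), with summed levels of 14009 against 4594 CPM, and *tnnt1* was at 0 counts in both. Of 13 measured hatching gland and notochord markers 10 were called higher, with sums of 5813 against 2464 CPM and no marker at 0. *klf17*, at 2059 against 2027 CPM (1920 against 2174 with TMM), made up most of the sibling sum, and without it the sums were 3754 against 437 CPM. Of 11 measured neural markers 6 were called higher (5 with TMM) and 1 lower, with sums of 546 against 222 CPM; *sox11a* was at 0 counts in both libraries and *sox11b* and *neurog1* were at 0 counts in the sibling library. Of 13 measured myeloid markers 6 were called lower (7 with TMM) and 1 higher, with sums of 1282 against 1442 CPM, and 0 of 11 endothelial markers were called, with sums of 292 against 227 CPM. Among all measured genes 10.1% were called higher and 2.56% lower, or 7.05% and 4.52% with TMM. Lower ratios were found in 39.2% of them, or 56.1% with TMM. The part of these cell type differences in the values below was not tested. In sorted bulk RNA, fewer cells of a type and less RNA per cell cannot be told apart.

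Across the 9 enzymes the libraries differed in both directions. *ahcy* was called lower and *mthfd1l* higher, and the other 7 were not called. Under TMM *shmt2* was also called lower and *mthfd1l* no longer passed 2-fold. With 1 call of 9 in each direction, these counts are too small to be told from the 10.1% and 2.56% of all measured genes. The 0 higher and 2 lower calls with TMM are likewise too few to be told from 7.05% and 4.52%. The counting interval lay below 1 for 5 enzymes, *shmt1*, *shmt2*, *mthfd2*, *mat2aa* and *ahcy*, and above 1 for *mthfd1l* and *psph*, and it held 1 for *phgdh* and *psat1*. Over all measured genes the interval lay below 1 for 21.9% and above 1 for 40.0%, so such an interval is common at this depth and by itself sets no enzyme apart. The median log2 ratio of the 9 was -0.16 against 0.13 for all measured genes, and -0.36 against -0.08 with TMM. Together the 9 genes took 0.109% of the counts of the mutant and 0.149% of the sibling library.

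**Figure D1:**
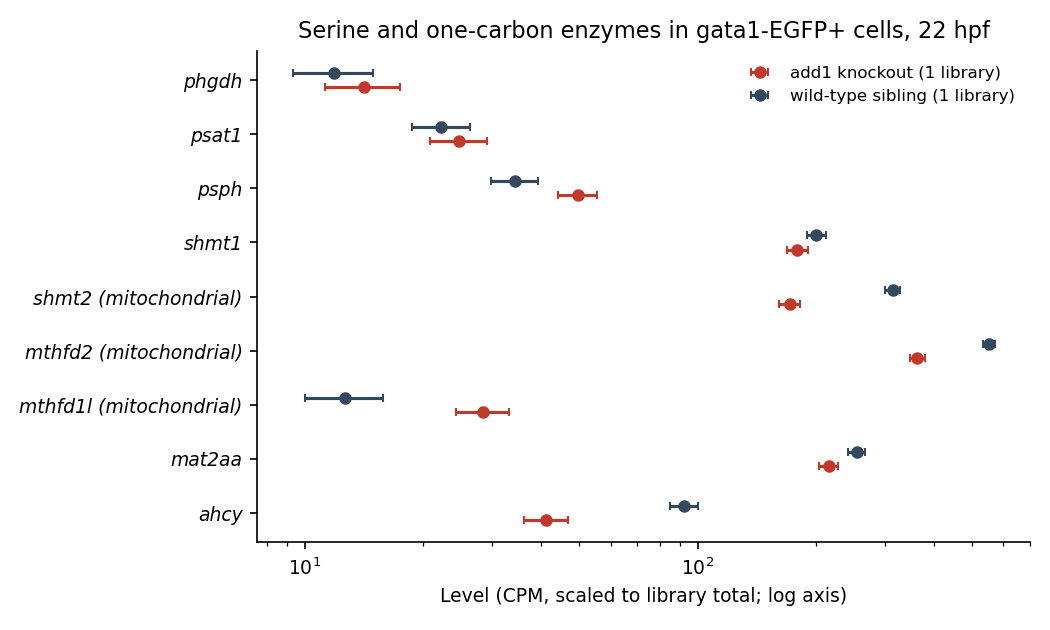
Level of the 9 enzyme genes in CPM on a log axis, 1 point per library, with exact 95% Poisson counting intervals. The mutant points lie to the left of the sibling points for *shmt2*, *mthfd2* and *ahcy* (41.1 against 92.2 CPM) and to the right for *mthfd1l* (28.4 against 12.7 CPM) and *psph*.

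By CPM the serine-making enzymes were less abundant than *shmt1* and *mat2aa* in both libraries. Per length this did not hold for *psph* against *mat2aa* in the mutant library, with FPKM of 30.6 and 25.9. *phgdh*, phosphoglycerate dehydrogenase, which commits the glycolytic intermediate to serine, lies on chromosome 9 (48488541 to 48516821). It had 84 mutant and 73 sibling counts, or 14.1 and 11.9 CPM, a ratio of 1.19 (0.859 to 1.65). *psat1*, the aminotransferase of the second step (chromosome 5, 68713689 to 68727260), had 147 and 137 counts, or 24.7 and 22.2 CPM, a ratio of 1.11 (0.873 to 1.41). The intervals of both genes hold 1, and with TMM the ratio of *psat1* fell on the other side of 1, at 0.964, so no direction can be given for it. *psph*, the phosphatase that releases serine (chromosome 15, 504337 to 510804), had 295 and 211 counts, 49.5 against 34.3 CPM, 1.45-fold higher in the mutant library (1.21 to 1.73) and 1.26-fold with TMM. The level thus stepped up from the start of the route to its end in both libraries, and per length too: the deposited FPKM were 5.94, 14.6 and 30.6 in mutant cells, and 4.99, 13.2 and 21.1 in sibling cells, for *phgdh*, *psat1* and *psph*. The spans of *psph* and its neighbour *gbas* share 268 bases, and reads there are uncertain because the sources used here do not give the strand setting of the counting. Summed, the 3 genes were at 88.3 against 68.4 CPM, 1.29-fold higher in the mutant library (1.13 to 1.47), and 1.12-fold with TMM, where the interval held 1 (0.986 to 1.28). Most of the difference in this sum came from *psph*.

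The cytosolic and mitochondrial forms of serine hydroxymethyltransferase differed in their ratios. *shmt2*, the mitochondrial enzyme (ENSDARG00000104414, chromosome 6, 59204233 to 59235373), had 1022 mutant and 1931 sibling counts. These were 172 against 314 CPM, 1.83-fold lower in the mutant library (1.69 to 1.97), and 2.10-fold lower with TMM. *shmt1*, the cytosolic enzyme (ENSDARG00000052816, chromosome 3, 40119071 to 40134213), had 1068 and 1234 counts, 179 against 200 CPM, 1.12-fold lower (1.03 to 1.21). The sibling library thus held more *shmt2* than *shmt1* counts, and the mutant library about as many of each. The mitochondrial gene gave 61.0% (59.3 to 62.7) of the pair's counts of sibling cells and 48.9% (46.7 to 51.1) in mutant cells. The ratio of *shmt2* to *shmt1* was 1.64-fold lower in the mutant library (1.46 to 1.83), a value that needs no scaling between libraries. Per length, the FPKM of *shmt2* was 1.95 times that of *shmt1* in the sibling and 1.19 times in the mutant library, so *shmt2* remained the higher of the pair on that scale. The whole 31141-base span of *shmt2* lies within that of *fam210b*, which had 1246 and 1534 counts, and how reads were divided between these genes cannot be read from the table.

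The other mitochondrial enzymes went opposite ways. *mthfd2*, the mitochondrial methylenetetrahydrofolate dehydrogenase and cyclohydrolase (chromosome 5, 68943906 to 68960202), was the most abundant of the 9 in each library. It had 2159 mutant and 3396 sibling counts, 362 against 551 CPM, 1.52-fold lower in the mutant (1.44 to 1.61) and 1.75-fold lower with TMM. Its span shares 44 bases with *mob1a*. *mthfd1l*, which encodes the mitochondrial enzyme that releases formate (chromosome 20, 26579096 to 26633077), had 169 mutant and 78 sibling counts. Its level was 28.4 against 12.7 CPM, 2.24-fold higher in the mutant library (1.70 to 2.97) and 1.95-fold with TMM. The ratio of *mthfd1l* to *mthfd2* counts was therefore 3.41-fold higher in the mutant library (2.58 to 4.54). *mthfd1l* was also among the least abundant, and per length the lowest of the 9, with 2.27 mutant and 1.01 sibling FPKM against 152 and 231 for *mthfd2*. The length implied by its FPKM and counts was 12482 bases, against 2386 for *mthfd2*, so its FPKM depends on a long gene model.

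**Figure D2:**
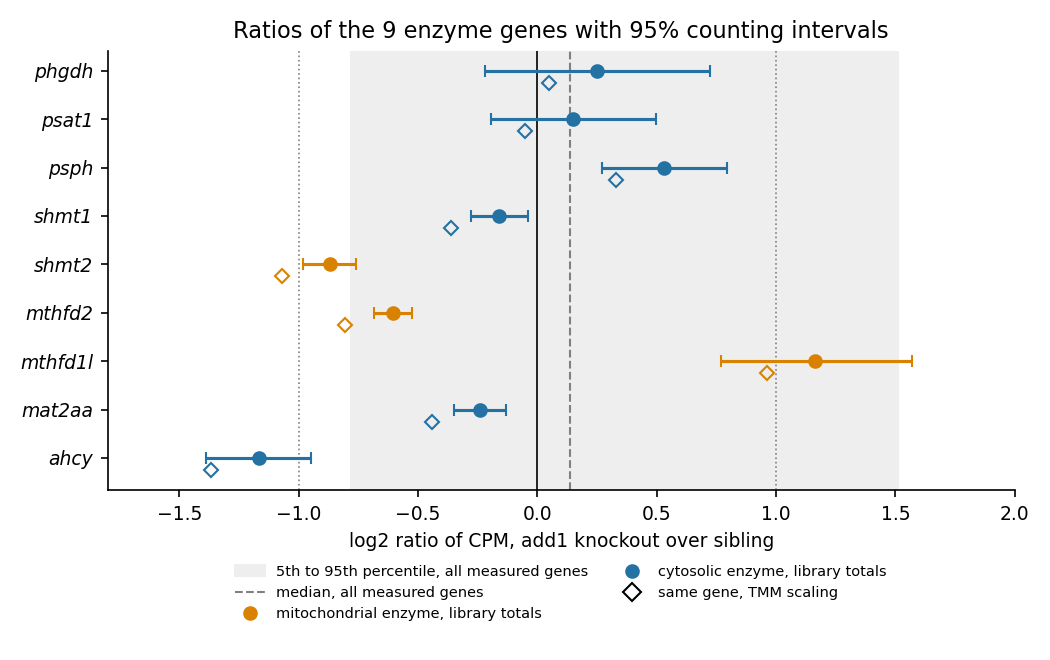
log2 ratio of CPM, mutant over sibling, for each enzyme gene, with 95% counting intervals (filled, library totals) and the value under TMM scaling (open diamonds); the band holds the 5th to 95th percentile of all measured genes and dotted lines mark 2-fold. *ahcy* and *shmt2* lie to the left of the band or at its edge, while *mthfd1l* is inside it on the right.

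Summed over *shmt2*, *mthfd2* and *mthfd1l*, the mitochondrial enzymes were at 562 against 878 CPM, or 1.56-fold lower in mutant cells (1.495 to 1.63). For comparison, the 6 cytosolic enzymes were at 524 against 615 CPM, 1.17-fold lower (1.12 to 1.23). With TMM the same sums were 1.79-fold and 1.35-fold lower. There were 1.07 mitochondrial counts per cytosolic count in mutant cells and 1.43 in sibling cells, a ratio 1.33-fold lower in the mutant library (1.25 to 1.42). Set against the cytosolic serine and folate members alone, without *mat2aa* and *ahcy*, it was 1.55-fold lower (1.43 to 1.69). These sums are carried by *shmt2* and *mthfd2*, and they do not describe *mthfd1l*, which went the other way. Nor did all cytosolic members stay near the sibling level, since *ahcy* was lower than any mitochondrial gene by its ratio. The ratio of the 3 serine-making genes to the mitochondrial genes was 2.02-fold higher in the mutant library (1.76 to 2.31).

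In the methionine cycle, *mat2aa* encodes a methionine adenosyltransferase, which makes S-adenosylmethionine (chromosome 10, 7850319 to 7862987). It had 1283 mutant and 1567 sibling counts, 215 against 254 CPM, 1.18-fold lower (1.097 to 1.27). *ahcy*, adenosylhomocysteinase, which removes the inhibitory product of methylation (ENSDARG00000005191, chromosome 6, 49927462 to 49967635), had 245 and 568 counts. It was at 41.1 against 92.2 CPM, 2.24-fold lower in the mutant library (1.93 to 2.62), and 2.58-fold lower with TMM. Its log2 ratio was lower than that of all but 1.80% of measured genes, the lowest position of the 9, and *shmt2* stood at 3.67%, *mthfd2* at 7.72% and *mthfd1l* at 91.4%. *mat2aa* and *ahcy* were thus unequally lower: the ratio of *ahcy* to *mat2aa* counts was 1.90-fold lower in the mutant library (1.60 to 2.25). *mat2aa* is not the only gene for the methyl donor. The catalytic genes summed were 1.53-fold higher in the mutant library (1.44 to 1.62), as given below.

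Paralogs of these 2 cycle enzymes did not share a direction. *mat2al*, a further methionine adenosyltransferase gene (ENSDARG00000063665, chromosome 10, 4969330 to 4980652), had 1399 mutant and 202 sibling counts. It was at 235 against 32.8 CPM, 7.16-fold higher in the mutant library (6.17 to 8.34). This is the highest ratio among the measured genes of the wider pathway. *mat2aa* gave 78.4% (76.5 to 80.2) of the counts of the 4 catalytic genes *mat1a*, *mat2aa*, *mat2ab* and *mat2al* of sibling cells and 43.4% (41.6 to 45.2) in mutant cells. *mat2al* gave 10.1% (8.82 to 11.5) and 47.3% (45.5 to 49.1). Per length, *mat2al* made up 22.0% of the FPKM of the 4 genes in the sibling and 67.5% in the mutant library, where the gene model of *mat2aa* implies 8328 bases. The 4 genes together were at 496 against 325 CPM, 1.53-fold higher in the mutant library (1.44 to 1.62), although *mat2aa* itself was lower. Sequence that these paralogs share could move reads among them, which the table does not show.

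*ahcyl1*, *ahcyl2a* and *ahcyl2b* encode proteins related to adenosylhomocysteinase; the mammalian forms are known as regulators of calcium release and ion transport rather than as that enzyme. *ahcy* gave 24.3% (22.6 to 26.1) of the counts of these 4 genes of sibling cells and 10.99% (9.72 to 12.4) in mutant cells. *ahcyl2a* was lower too, at 24.7 against 32.5 CPM, a ratio of 0.760 (0.610 to 0.945). The ratios of *ahcyl1* and *ahcyl2b* were 1.14 (0.982 to 1.32) and 1.23 (1.14 to 1.33), or 0.990 and 1.07 with TMM. With library totals the family sum was 374 against 379 CPM, a ratio of 0.987 (0.931 to 1.05), so the lower *ahcy* count was not visible in that sum. TMM lowers every ratio of mutant to sibling counts, so this holds for library totals only.

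**Figure D3:**
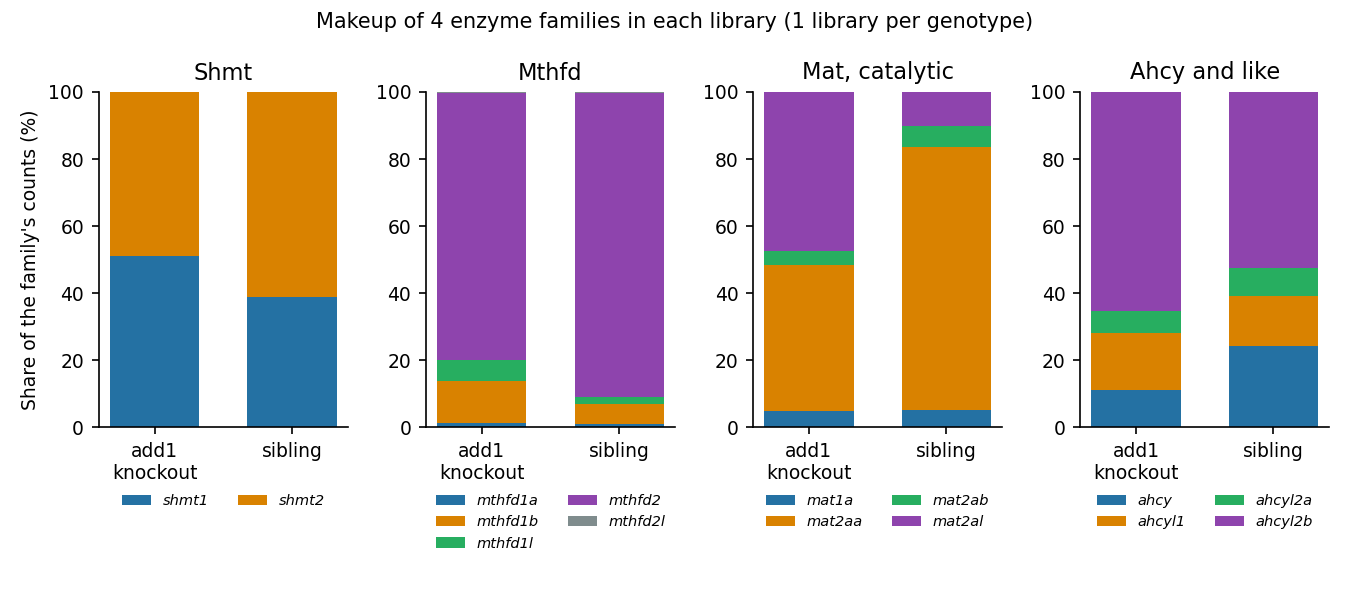
Share of each family's counts held by each gene, in percent, for the serine hydroxymethyltransferases, the methylenetetrahydrofolate dehydrogenases, the catalytic methionine adenosyltransferases and adenosylhomocysteinase with its relatives, 1 bar per library. *mat2al* takes 47.3% of its family in mutant and 10.1% in sibling cells, and *shmt2* 48.9% and 61.0% of its pair.

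The wider list of serine, folate and methionine genes held 73 genes of the table, of which 60 were measured. Of these 60, 3 were called higher (*mat2al*, *slc1a4* and *mthfd1l*) and 1 lower (*ahcy*), or 2 higher and 5 lower with TMM, where *shmt2*, *aldh1l1*, *dhfr* and *slc38a2* joined *ahcy*. Over all measured genes 10.1% were called higher and 2.56% lower, or 7.05% and 4.52% with TMM. The median log2 ratio was 0.14, against 0.13 for all measured genes, and -0.06 against -0.08 with TMM. By its median, though not by its calls, the list thus sat where the measured genes as a whole did. Without the 9 enzymes, 51 genes had a median of 0.18. *bhmt*, which remethylates homocysteine, had 0 mutant and 6 sibling counts and lies on chromosome 21 before the end of *add1*; none of the 9 enzymes lies in that stretch.

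Among 7 measured genes of mitochondrial folate metabolism, *mthfd1l* was called higher, the folate carrier gene *slc25a32a* had a higher ratio without a call (86.1 against 68.4 CPM), and 5 had lower ratios without a call. With TMM *mthfd1l* was not called and *shmt2* was called lower. Over all measured genes 10.1% were called higher and 2.56% lower, or 7.05% and 4.52% with TMM. Of all measured genes 39.2% had lower ratios, or 56.1% with TMM. With 7 genes these counts are too small to be told from those shares, and the 5 lower ones include *shmt2* and *mthfd2*. *aldh1l2*, which oxidizes mitochondrial formyl-tetrahydrofolate, was at 169 against 257 CPM, 1.52-fold lower in the mutant library (1.40 to 1.65). That is close to the value of *mthfd2*. Its cytosolic counterpart *aldh1l1* was at 58.9 against 108 CPM, 1.84-fold lower (1.61 to 2.10), for the gene of that name on chromosome 6 at 20008589 to 20042102 (a second one had 0 and 2 counts). Here, unlike in the serine hydroxymethyltransferase pair, the mitochondrial share of counts was slightly higher in the mutant library, 74.2% (71.8 to 76.5) against 70.3% (68.4 to 72.2), with overlapping intervals. The ratio of *aldh1l2* to *aldh1l1* counts was 1.21-fold higher there (1.04 to 1.42). Both values include the second *aldh1l1* gene.

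Of 13 measured cytosolic folate genes none was called with library totals, and *aldh1l1* and *dhfr* were called lower with TMM. With either scaling 8 had higher and 5 lower ratios, and the median was 0.32, or 0.13 with TMM. Of all measured genes 60.8% had higher ratios with library totals and 43.9% with TMM. The split is thus near theirs with library totals only. *mthfd1b*, a cytosolic trifunctional folate enzyme, was at 56.9 against 35.2 CPM, 1.62-fold higher in the mutant library (1.36 to 1.92). Set against it, *mthfd2* was 2.46-fold lower in the mutant library (2.05 to 2.95). *mthfd1l*, its mitochondrial relative, differed less from it, with a ratio of ratios of 1.39 and an interval that holds 1 (0.998 to 1.93). *dhfr*, dihydrofolate reductase, which returns folate to its active form after thymidylate synthesis, was at 42.8 against 86.1 CPM, 2.01-fold lower (1.73 to 2.34), just short of a call on the log2 scale of CPM + 1. *dhfr* is also a gene of S phase. The list of replication genes holds *dhfr* and a further gene of the cytosolic folate list. In it 35 of 35 measured members had lower ratios in the mutant library. Of all measured genes 39.2% did, or 56.1% with TMM. Of the 35, 11 were called lower, or 20 with TMM, where 2.56% and 4.52% of all measured genes were. Their median was -0.87 and the sums of the list were 5517 against 10467 CPM, while *dut* had 0 and 1 counts and was not measured. Whether the values of *shmt2* and *mthfd2* go with the share of dividing cells was not tested.

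**Figure D4:**
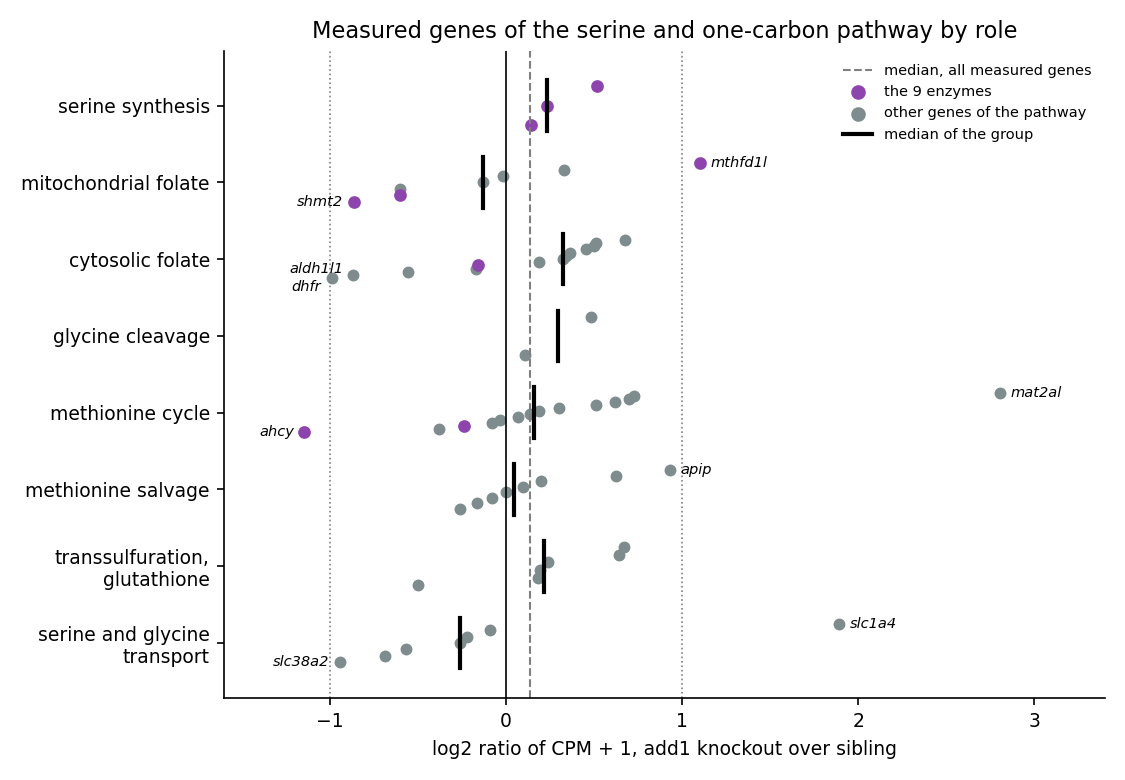
log2 ratio of CPM + 1, mutant over sibling, for the measured genes of each role group, with the 9 enzymes in purple, other genes in grey, group medians as black bars and dotted lines at 2-fold. Of 60 genes, *mat2al*, *slc1a4* and *mthfd1l* lie beyond 2-fold on the right and *ahcy* on the left.

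In the methionine cycle 9 of 14 measured genes had higher ratios with library totals but 6 of 14 with TMM. This is near the share of all measured genes with higher ratios, 60.8% with library totals and 43.9% with TMM. *mtrr*, which reactivates methionine synthase, was at 20.0 against 11.7 CPM and *mtr*, methionine synthase, at 10.7 against 6.66 CPM. *gnmt*, which uses up S-adenosylmethionine to methylate glycine, was at 18.3 against 10.9 CPM. In methionine salvage 0 of 8 were called. Among all measured genes 10.1% were called higher and 2.56% lower, or 7.05% and 4.52% with TMM. *apip* was at 57.2 against 29.6 CPM, 1.94-fold higher (1.61 to 2.33), *mtap*, which starts the salvage route, at 85.8 against 55.2 CPM, and *mri1* at 10.2 against 12.5 CPM. Of 6 measured transsulfuration and glutathione genes none was called. Groups of 8 and 6 genes are too small for the absence of calls to be told from those shares. The paralogs *cbsa* and *cbsb*, cystathionine beta-synthase genes that join serine to homocysteine, had nearly equal ratios, 1.60 (1.43 to 1.78) and 1.59 (1.27 to 1.99), and *gss*, glutathione synthetase, was at 13.9 against 20.1 CPM. Of the glycine cleavage genes 2 of 5 were measured, *gcsha* at 41.5 against 29.4 CPM and *dldh* at 210 against 194 CPM, a ratio of 1.08 with library totals and 0.939 with TMM. Below the minimum, *gcshb*, the paralog of *gcsha*, had 7 mutant and 30 sibling counts. The other unmeasured genes had more mutant counts, 13 and 7 for *gldc* and 45 and 32 for *amt*.

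Of 7 measured transporters 1 was called higher and 6 had lower ratios without a call, where 39.2% of all measured genes had lower ratios (56.1% with TMM). Calls among all measured genes were 10.1% higher and 2.56% lower, or 7.05% and 4.52% with TMM. A group of 7 genes is too small for its calls to be told from those shares. *slc1a4*, a serine and alanine transporter, was at 19.0 against 4.38 CPM, 4.33-fold higher in the mutant library (2.82 to 6.85), on 113 and 27 counts. *slc38a2*, a neutral amino acid transporter, was at 176 against 340 CPM, 1.93-fold lower (1.79 to 2.08), and 2.22-fold lower with TMM, where it was called. *slc7a5*, a large neutral amino acid transporter, was at 36.8 against 59.8 CPM, 1.63-fold lower (1.37 to 1.93). *slc6a9*, the glycine transporter that supplies heme synthesis in mammalian erythroid cells, was at 36.8 against 55.1 CPM. *slc25a38b*, of the family that carries glycine into mitochondria for heme, was at 46.2 against 55.5 CPM, and its paralog *slc25a38a* had 0 counts in both libraries.

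Transcription factors known in mammals to drive genes of this pathway did not share a direction. *atf4a* and *atf4b*, the genes of the stress factor Atf4, were at 96.0 against 113 CPM and 804 against 905 CPM, both slightly lower in the mutant library. *atf5a*, a related factor gene, was at 276 against 46.4 CPM, 5.93-fold higher (5.23 to 6.75). All 4 measured Myc family genes had higher levels: *myca* was called, at 14.6 against 4.87 CPM, and *mycb* (415 against 236 CPM), *mych* (300.0 against 155 CPM) and *mycn* (92.5 against 53.9 CPM) were not. Of the 7 measured regulators 5 had higher ratios and 2 were called higher, with either scaling. Of all measured genes 60.8% had higher ratios and 10.1% were called higher, or 43.9% and 7.05% with TMM. Counts this small cannot be told from those shares.

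By position, *mat2ab*, *psat1* and *mthfd2* lie within 533 kb of chromosome 5, a stretch that holds 26 genes. Their log2 ratios were 0.07, 0.14 and -0.60 with library totals (the first and second were on the other side of 0 with TMM), and the median of the 15 measured genes there was 0.14.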

How the data were processed

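The table the authors deposited gives raw counts and FPKM, which divides counts by gene length and library size, for every gene and library. Per the labels' protocols, RNA was amplified with the SMART-Seq HT kit and sequenced on a BGISEQ-500. The build was GRCz10, per the submitters' processing notes; the sources used here name no aligner, counter, strand setting or filter. FPKM per count differed between libraries by a factor of 1.03, as the count totals did.

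Counts were divided by library totals to give CPM. TMM factors of 1.07 (mutant) and 0.932 (sibling) and upper quartile factors came from edgeR 4.0.16 in R 4.3.3, and median-of-ratios factors from DESeq2 1.42.0, both used for scaling only. Folds are ratios of CPM with exact (Clopper-Pearson) 95% intervals; ratios of ratios have exact conditional intervals (scipy 1.17.1) and shares exact binomial ones. Reads carry no molecular identifiers, so amplified copies of 1 molecule may count as separate reads. All intervals cover the counting of reads only and may be too narrow for that reason. A level of 10 CPM is 59.6 mutant or 61.6 sibling counts.

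Members and gene lists were chosen with earlier results of these data known. Of 218 listed symbols, 206 matched by gene name, 2 by name in another case, 5 by gene ID and 5 were not found. Named genes are the 9 enzymes, in each role group the called genes and up to 3 others with the largest ratios, and the measured regulators. *mat1a*, *mat2ab*, the *ahcyl* genes, *slc25a32a*, *slc25a38a*, *slc25a38b*, *bhmt*, *gcshb*, *gldc*, *amt*, *klf17* and the sum without it, neighbouring genes, and the ratios between genes other than *shmt2* to *shmt1* and mitochondrial to cytosolic enzymes, were chosen after values were seen. With 2 libraries no likeness of pattern between genes can be measured.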

Additional observations from a re-analysis of the deposited data

How the results depend on the processing

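The 248 genes called lower became 435 with TMM, 431 with median-of-ratios and 428 with upper quartile scaling, where the 9 enzymes gave 0 higher and 2 lower calls and the wider pathway 5 lower calls. With those scalings the log2 of the mitochondrial sum, -0.64 with library totals, was -0.84 (-0.8442, -0.8421 and -0.8413), and that of the cytosolic sum, -0.23, was -0.43 (-0.4338, -0.4317 and -0.4309). Totals without globin, mitochondrially encoded and ribosomal protein genes gave -0.75 and -0.34, and 3 lower pathway calls. FPKM called 434 genes higher and 150 lower, with 0 enzymes and 1 pathway gene higher. There the minimum of 10 and the pseudocount of 1 were applied to FPKM, a stricter rule for long genes. It left 7 enzymes and 42 pathway genes measured, without *mthfd1l* at 2.27 and 1.01 FPKM. A pseudocount of 5 called 627 genes and 0 enzymes higher, and one of 0.1 called 2 pathway genes lower. A minimum of 1 CPM or none called 2414 genes higher and 578 lower, with 2 pathway genes lower. A minimum of 50 CPM called 270 and 123, with 0 enzymes and 1 pathway gene higher, and one of 10 CPM in both libraries 427 and 156. The 1.5-fold rule called 2083 and 790 genes, 3 enzymes lower, and 11 and 8 pathway genes; the 4-fold rule called 179 and 29 genes, 0 enzymes either way, and 1 and 0 pathway genes. Stricter minimums and rules hold fewer genes by construction.

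Without *mthfd2* the log2 of the mitochondrial sum was -0.71, and the median of the cytosolic members' log2 ratios was -0.00805, where the sum gave -0.23. The mitochondrial to cytosolic ratio of 0.752 was 0.644 without *mat2aa* and *ahcy* and 0.706 with FPKM. Over the main value and 7 alternatives, *ahcy* passed 2-fold in 8 of 8, *shmt2* in 3 and *mthfd1l* in 3, and the direction of *psat1* turned in 3. The other 8 enzymes kept theirs. The FPKM value of *mthfd1l*, a log2 ratio of 0.70, was pulled toward 0 by a pseudocount of 1 that is large beside its FPKM. Depth limits *phgdh*, *psat1* and *mthfd1l*, with 73 to 169 counts each. No paired analysis was possible because each genotype has 1 library.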
